A study of Homo sapiens with 15 samples.

Results

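The MYC, MAX and MXD network was described across 6 groups of U2OS cells. Its 10 members were chosen by gene symbol from the deposited table of 23368 genes: MYC, MYCN, MYCL1, MAX, MXD1, MXD3, MXD4, MXI1, MNT and TFAP4. All 10 were in the table and all 10 passed the filter on low values, by which a gene had to lie at least 1 unit above the lowest value of the table in at least 2 libraries. MYCN passed it only through the 2 DMSO non-released libraries, the group in which it is highest. The filter thus favoured a difference of MYCN against that group, and such a difference supports nothing here.

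U2OS is a human osteosarcoma line with wild-type p53. Nutlin, an antagonist of the p53 ubiquitin ligase MDM2, was given at 10 µM, and DMSO alone was its control. The labels print this dose without the prefix of its unit, taken here to be micro. The groups were Nutlin S-phase (2 libraries) and DMSO S-phase (3), Nutlin non-released (2) and DMSO non-released (2), and Nutlin asynchronous (3) and DMSO asynchronous (3), 15 in all. Non-released and S-phase cells went through a double thymidine block (2 mM for 16 h, 8 h without, 16 h again), and Nutlin or DMSO was added 4 h before the time of release. Non-released cells stayed in the block, while S-phase cells were washed free of thymidine, kept on Nutlin or DMSO and collected 4 h later. How long asynchronous cells were treated is not stated in the labels. By the labels all cells were 1 line grown in 10% serum. Nothing in the labels says that replicates came from separate cultures, and the p-values therefore cover the spread between these libraries alone, which may be technical. In bulk RNA, fewer cells of a type and less RNA per cell cannot be told apart.

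MYC, MYCN and MYCL1 encode basic helix-loop-helix leucine zipper factors that bind DNA as dimers with MAX, at the E-box, and activate genes of ribosome production, metabolism and cell growth. The MXD proteins, MXI1 and MNT compete for MAX, bind the same sites and recruit SIN3 and histone deacetylase repressors. TFAP4, which encodes AP-4, is a MYC-activated gene whose product binds a related E-box and represses CDKN1A. Activated p53 is known for repressing MYC in several cell types, and one of its targets is the gene of miR-34a, a microRNA that acts on MYC and MYCN transcripts. MYC transcript and protein turn over quickly, and cells that leave growth commonly lower MYC while raising some of the MXD genes.

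The promoter windows below are shown because they hold letters that the network's factors or E2F proteins are known to bind. They come from RefSeq on GRCh38.p14, 250 bases before to 50 after the start of transcription, 5′ to 3′ on the gene's strand. MYC was not looked up, TFAP4 had no window, and the other 8 members had 11 windows. The motifs were searched on both strands: the E-box CACGTG, the AP-4 site CAGCTG and the E2F site TTTGGCGC. No motif overlaps another in the windows shown. Capitals mark the match, and each window has 1.
MXD3: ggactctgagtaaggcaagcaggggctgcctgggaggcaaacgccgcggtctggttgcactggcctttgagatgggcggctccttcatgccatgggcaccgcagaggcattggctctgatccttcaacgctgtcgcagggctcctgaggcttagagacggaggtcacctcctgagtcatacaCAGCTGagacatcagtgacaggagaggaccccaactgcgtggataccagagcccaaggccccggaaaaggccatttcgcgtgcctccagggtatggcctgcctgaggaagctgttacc
MYCN: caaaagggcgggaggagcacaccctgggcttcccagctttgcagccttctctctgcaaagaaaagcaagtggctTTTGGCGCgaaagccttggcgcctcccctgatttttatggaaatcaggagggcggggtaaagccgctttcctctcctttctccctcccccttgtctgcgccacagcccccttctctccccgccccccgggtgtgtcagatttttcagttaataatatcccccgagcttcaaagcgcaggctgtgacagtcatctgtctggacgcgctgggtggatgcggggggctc
MXD4: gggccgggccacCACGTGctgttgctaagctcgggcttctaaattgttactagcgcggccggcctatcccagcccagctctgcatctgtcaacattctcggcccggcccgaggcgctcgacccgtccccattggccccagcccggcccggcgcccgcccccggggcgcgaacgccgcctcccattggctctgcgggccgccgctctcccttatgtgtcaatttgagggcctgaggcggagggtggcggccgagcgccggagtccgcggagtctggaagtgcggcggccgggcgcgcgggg
MNT: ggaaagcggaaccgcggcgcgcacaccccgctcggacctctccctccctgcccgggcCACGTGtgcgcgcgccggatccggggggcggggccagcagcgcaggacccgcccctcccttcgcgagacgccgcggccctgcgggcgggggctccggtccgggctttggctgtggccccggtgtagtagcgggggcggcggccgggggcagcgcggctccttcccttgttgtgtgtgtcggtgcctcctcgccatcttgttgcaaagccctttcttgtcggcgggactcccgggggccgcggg

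The MXD3 window (chr5:177312703-177313002, minus strand) holds an AP-4 site that begins 68 bases before the start, and 17.9% of all 35116 windows hold one. In the MYCN window (chr2:15940300-15940599, plus strand) an E2F site begins 176 bases before the start, and 0.652% of all windows hold one. E-boxes begin 238 bases before the start in the MXD4 window (chr4:2262060-2262359, minus strand) and 193 bases before it in the MNT window (chr17:2401011-2401310, minus strand), against 7.26% of all windows. The other 7 windows, of MYCL1, MXD1, MXI1 and MAX, hold none of these letters. A match describes the letters and is no evidence of binding.

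MiR-34a is shown because it links p53 to MYC and MYCN, and its seed, bases 2 to 8, is in capitals (RefSeq, GRCh38.p14, chr1:9151735-9151756, minus strand).
hsa-miR-34a-5p: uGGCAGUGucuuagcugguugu
The mature form was not measured. The gene's row, MIR34A, held 4 and 4 reads in Nutlin S-phase libraries and 5, 3 and 7 in DMSO S-phase libraries, 6 and 14 in Nutlin non-released and 4 and 0 in DMSO non-released libraries, and 6, 6 and 5 in Nutlin asynchronous and 1, 1 and 2 in DMSO asynchronous libraries. It did not pass the filter on low values and was not tested.

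Depth, as recovered gene reads, ranged between 6.05 and 23.38 M per library. The library labelled DMSO asynchronous replicate 3 stands apart from its group. Its mean correlation with its group was 0.9753, and 18 of 20 epithelial and luminal breast markers were highest in it. Their summed level was 45411.5 normalised reads there, against 12276.9 to 17361.2 in the other 14 libraries, and ESR1 and KRT19 stood at 1375.9 and 7508.4, against at most 21.7 and 32.5. The p53 targets CDKN1A and MDM2, the checks of the Nutlin label, stood at 14.10 and 14.77 in it, at the level of Nutlin-treated libraries. DMSO S-phase replicate 2 had the fewest reads and a mean correlation of 0.9773 with its group. Results are given with all 15 libraries, and some of those that rest on these 2 are given with the 13 others as well. Of 15 bone and mesenchymal markers, VIM, SPARC and FN1 were high in every library, while TWIST1 was listed at 0 and BGLAP and IBSP stayed under 10 reads. Without both libraries CDKN1A rose under Nutlin in each state (adjusted p 1.92e-08 in S-phase, 6.73e-07 in non-released and 7.93e-10 in asynchronous cells), and with all 15 in none (0.0927, 0.597 and 0.305).

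**Figure D1:**
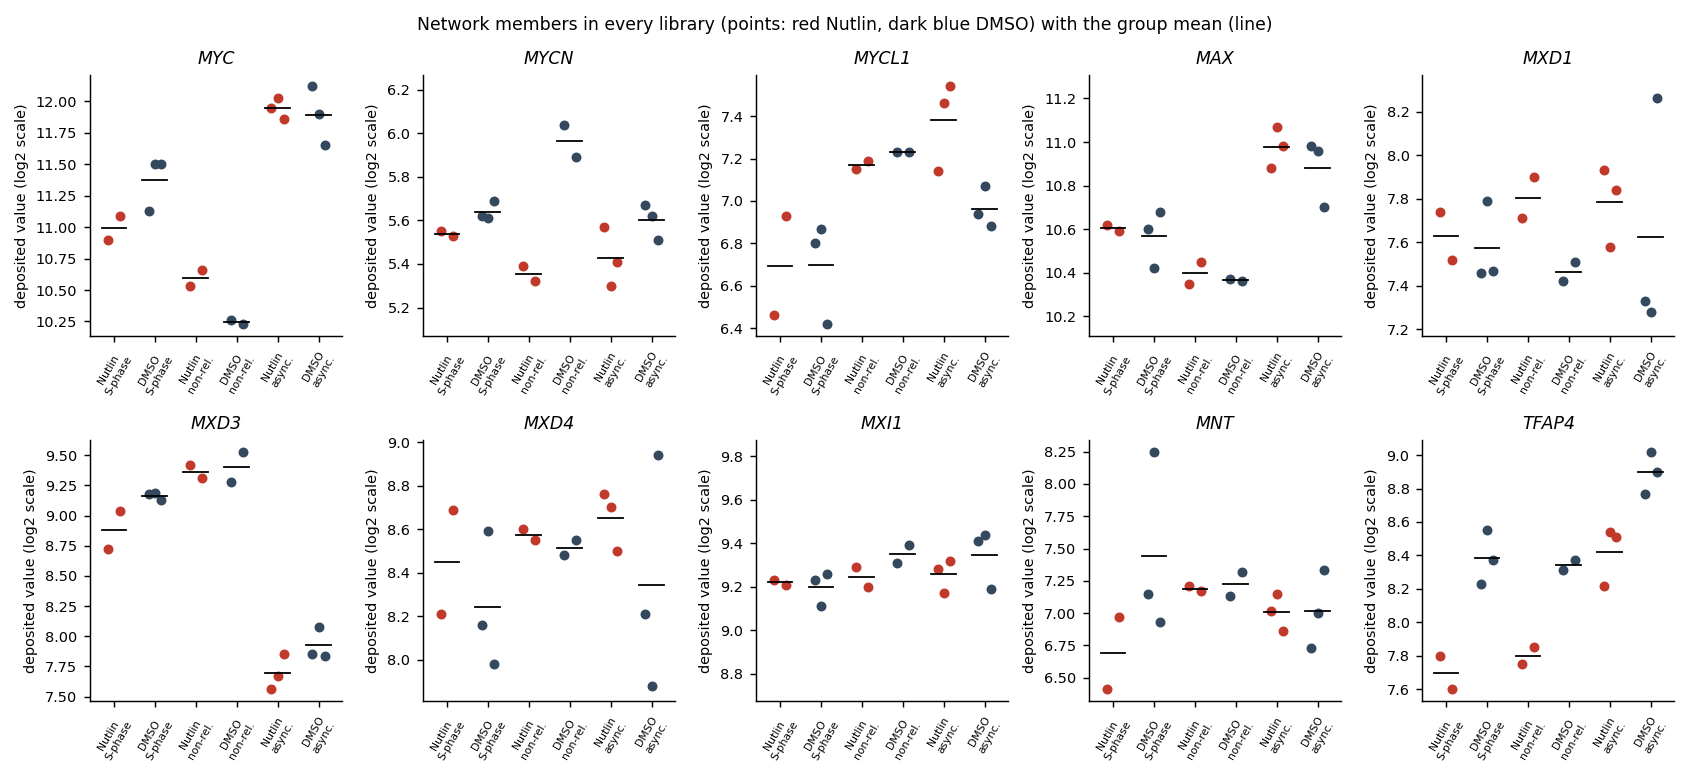
Deposited value on the log2 scale (vertical axis, a separate range for each gene) of each member in every library, by group (horizontal axis), with points for libraries and lines for group means. MYC lay lowest in non-released cells and highest in asynchronous cells, MXD3 lay lowest in asynchronous cells, and TFAP4 lay lower under Nutlin in all 3 states.

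Levels between genes are compared per length, as reads per kb of the longest GENCODE v29 transcript per M reads. MYC was the most abundant member in every group on that scale, but with the median transcript length MAX exceeded it in non-released cells (114 against 72 under Nutlin, 113 against 56.4 in DMSO) and in S-phase cells (122 against 88.3 under Nutlin, 124 against 121 in DMSO). It averaged 50.9 ± 4.8 in Nutlin S-phase and 69.9 ± 9.6 in DMSO S-phase cells, 41.6 ± 3.6 in Nutlin non-released and 32.6 ± 0.569 in DMSO non-released cells, and 99.1 ± 6.14 in Nutlin asynchronous and 95.5 ± 10.8 in DMSO asynchronous cells (SD, n = 2, 3, 2, 2, 3 and 3). On the longest transcript MAX averaged 26.7 ± 0.237 in DMSO non-released and 34.9 ± 2.5 in DMSO asynchronous cells. MYCL1 averaged 2 ± 0.0101 in DMSO non-released and 1.36 ± 0.158 in DMSO asynchronous cells, and MYCN 0.461 ± 0.0941 and 0.181 ± 0.0299 in those groups. Of the MYC family, MYC was the most abundant gene in every group with either length. Among the genes of MAX-binding repressors, MXI1 led in DMSO asynchronous cells at 10.3 ± 0.787, and MXD3 led in DMSO non-released cells at 18.3 ± 2.36, where MXI1 was at 11.5 ± 0.512. With the median transcript length that order turned, with MXI1 at 44.8 and MXD3 at 35.5 in DMSO non-released cells. Changes of 1 gene between groups do not depend on this choice.

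**Figure D2:**
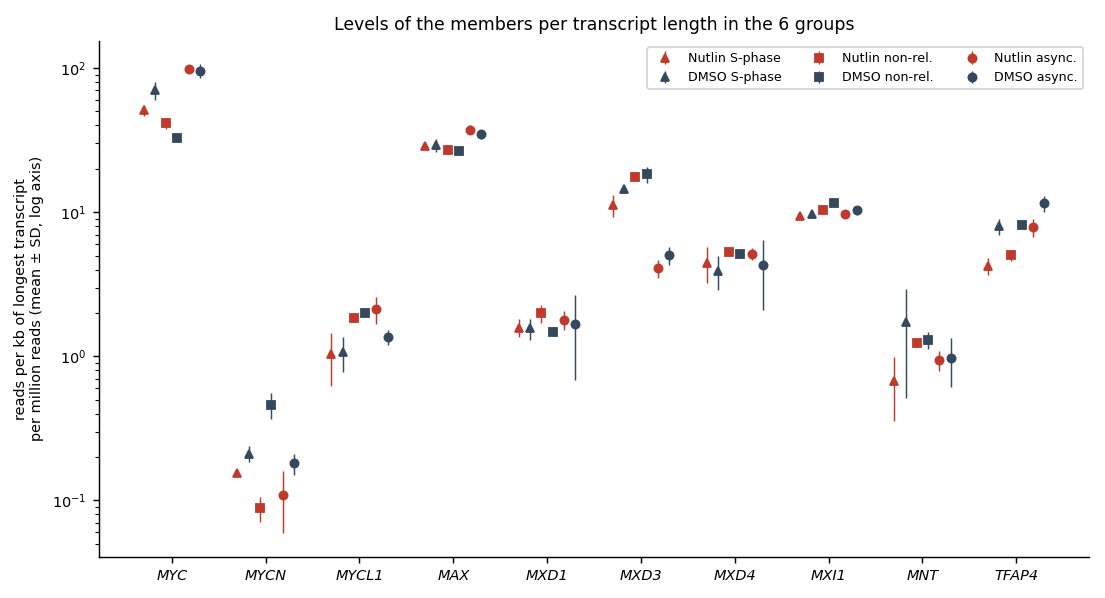
Mean reads per kb of the longest transcript per M reads (vertical axis, log scale, bars are SD) of each member (horizontal axis) in the 6 groups. On the longest transcript MYC and MAX lie above the other members, MYCN lies below all of them, and MXD3 in DMSO cells is at 18.3 in non-released and 5.01 in asynchronous cells.

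MYC transcripts fell in the block and were higher again 4 h after release. In DMSO, the deposited values on the log2 scale were 10.26 and 10.23 in non-released libraries, against 12.12, 11.90 and 11.65 in asynchronous libraries. The groups did not overlap, and the difference was -1.65 ± 0.14 (SE, adjusted p 6.91e-06). In normalised reads the means were 1107 in non-released and 3622 in asynchronous cells, 3.27-fold lower in the block. In DMSO S-phase libraries MYC was at 11.13, 11.50 and 11.50, all above the non-released and all below the asynchronous libraries. S-phase cells lay 1.13 ± 0.14 above non-released cells (adjusted p 0.000263) and 0.52 ± 0.12 below asynchronous cells (difference -0.52, adjusted p 0.00801, and 0.0824 in a fit of the compared groups alone). All 3 comparisons between states within a treatment share libraries.

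Under Nutlin, MYC took the same order of states. Its values were 10.90 and 11.09 in S-phase, 10.53 and 10.66 in non-released, and 11.95, 12.03 and 11.86 in asynchronous libraries. Non-released cells differed from asynchronous ones by -1.35 ± 0.14 (adjusted p 1.94e-05) and S-phase from asynchronous cells by -0.95 ± 0.14 (adjusted p 0.000409). S-phase lay 0.40 ± 0.15 above non-released cells, without passing the threshold (adjusted p 0.202), and passed it in the 13-library fit (adjusted p 0.0398). The difference between these S-phase gains in Nutlin and DMSO cells, which is also the difference between the Nutlin responses in S-phase and non-released cells, was -0.74 ± 0.20 (unadjusted p 0.00294, adjusted p 0.999), and no gene of 14298 passed that test.

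With all libraries in the fit, no difference of MYC between Nutlin and DMSO passed the test in any state. The difference of Nutlin from DMSO was 0.06 ± 0.12 in asynchronous cells, whose libraries overlapped (adjusted p 0.954). In non-released cells both Nutlin libraries, at 10.53 and 10.66, lay above both DMSO libraries, at 10.26 and 10.23, with a difference of 0.36 ± 0.15 (adjusted p 0.626, and 0.0326 in a fit of these 2 groups alone). In S-phase cells both Nutlin libraries, at 10.90 and 11.09, lay below all 3 DMSO libraries, the lowest of which was at 11.13, with a difference of -0.38 ± 0.14 (adjusted p 0.231). In the 13-library fit the adjusted p was 0.799 in asynchronous, 0.147 in non-released and 0.168 in S-phase cells.

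MYCN, a neural member of the family that is amplified in neuroblastoma, was scarce throughout, with 2 to 26 reads per library. It had 4 and 4 reads in Nutlin non-released libraries, against 26 and 24 in DMSO non-released libraries, and 2 to 10 in the other 11. Normalised reads averaged 3.36 ± 0.727 in Nutlin non-released and 17.23 ± 3.48 in DMSO non-released cells (SD, n = 2 each). On the log2 scale, which compresses low values, the difference was -0.61 ± 0.12 (adjusted p 0.0319), and DMSO non-released lay 0.36 ± 0.11 above DMSO asynchronous cells (adjusted p 0.0243). Both calls are against the group through which MYCN passed the filter on low values. In a fit without that filter the first was still called (adjusted p 0.0251), from the same few reads. The first was lost without Nutlin non-released replicate 1 (adjusted p 0.173) or 2 (0.383), without Nutlin asynchronous replicate 3 (0.052) or without DMSO S-phase replicate 1 (0.0561), and MYCN was not tested without DMSO non-released replicate 1 or 2. The second was lost without DMSO asynchronous replicate 3 (0.0501), in a fit of the compared groups alone (0.0672) and with quantile normalisation (0.148), and the first also with quantile normalisation (0.0779). MYCNOS, the antisense gene that overlaps MYCN, had 0 to 2 reads in each library.

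MYCL1, now named MYCL and known for its amplification in small cell lung cancer, fell in Nutlin S-phase cells relative to Nutlin asynchronous cells. It was at 6.46 and 6.93 in Nutlin S-phase libraries, against 7.14, 7.46 and 7.54 in Nutlin asynchronous libraries. The difference was -0.68 ± 0.17 (adjusted p 0.0107), and -0.44 (adjusted p 0.149) without Nutlin S-phase replicate 1. In DMSO, S-phase libraries at 6.80, 6.87 and 6.42 lay below non-released libraries at 7.23 and 7.23, with a difference of -0.53 ± 0.17 (adjusted p 0.078, and 0.0284 over 13 libraries). Under Nutlin in asynchronous cells MYCL1 lay 0.41 ± 0.15 higher, with groups that did not overlap (adjusted p 0.245). In the annotation other genes overlap MYCN, MYCL1, MAX, MXD1, MXD3, MXI1 and MNT, and whether counting used strand is not stated, so reads of overlapping stretches cannot be told apart.

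MAX, the shared partner, fell with MYC in the block, by less. In DMSO it was at 10.37 and 10.36 in non-released libraries, against 10.98, 10.96 and 10.70 in asynchronous libraries, a difference of -0.51 ± 0.10 (adjusted p 0.002). Under Nutlin it was at 10.35 and 10.45 in non-released libraries, against 10.88, 11.07 and 10.98 in asynchronous libraries, a difference of -0.57 ± 0.10 (adjusted p 0.00101). In S-phase against asynchronous cells the differences were -0.37 ± 0.10 under Nutlin (adjusted p 0.0196) and -0.31 ± 0.09 in DMSO (adjusted p 0.023). These 2 smaller differences were each lost in some of the fits without 1 library, the DMSO one without DMSO S-phase replicate 2 (adjusted p 0.0697) or DMSO asynchronous replicate 1 (0.08) or 2 (0.0846), the Nutlin one without Nutlin S-phase replicate 1 (0.0834) or 2 (0.0968) or Nutlin asynchronous replicate 2 (0.0778) or 3 (0.0515). The DMSO one was also lost in a fit of the compared groups alone (0.145), under voom scaled by total reads (0.0774) and with quantile normalisation (0.0742). Nutlin moved MAX by 0.04 ± 0.10 in S-phase, 0.04 ± 0.11 in non-released and 0.09 ± 0.09 in asynchronous cells. In DMSO, S-phase lay 0.20 ± 0.10 above non-released cells (adjusted p 0.287), and 0.28 above them over 13 libraries (adjusted p 0.0274).

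MXD3 rose in the block in both treatments. Mxd3 in the mouse is known as the MXD gene expressed in proliferating cells around S phase, while the others mark differentiation. In DMSO, MXD3 was at 9.28 and 9.53 in non-released libraries, against 7.85, 8.08 and 7.84 in asynchronous libraries, and the groups were far apart. The difference was 1.48 ± 0.13 (adjusted p 7.62e-06), or 597.7 normalised reads in non-released against 181.3 in asynchronous cells, 3.3-fold higher. DMSO S-phase libraries were at 9.18, 9.19 and 9.13, between the other states and nearer to non-released cells. S-phase lay 1.24 ± 0.11 above asynchronous cells (adjusted p 1.93e-05) and differed from non-released cells by -0.24 ± 0.13 (adjusted p 0.313).

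Under Nutlin, MXD3 was at 8.72 and 9.04 in S-phase, 9.42 and 9.31 in non-released, and 7.56, 7.67 and 7.85 in asynchronous libraries. The difference from asynchronous cells was 1.67 ± 0.13 in non-released (adjusted p 3.41e-06) and 1.19 ± 0.13 in S-phase cells (adjusted p 5.9e-05). S-phase differed from non-released cells by -0.48 ± 0.14 (adjusted p 0.0947, and 0.0335 over 13 libraries). Nutlin against DMSO gave -0.28 ± 0.13 in S-phase (adjusted p 0.378), -0.04 ± 0.14 in non-released (0.999) and -0.23 ± 0.11 in asynchronous cells (0.471). RAB24 and PRELID1 are the genes that overlap MXD3.

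MXI1, MXD1, MXD4 and MNT passed no test with all libraries. MXI1 varied least, between 9.11 and 9.44 over all 15 libraries. MXD1, a gene of terminal differentiation, was at 7.93, 7.58 and 7.84 in Nutlin asynchronous libraries, against 7.33, 7.28 and 8.26 in DMSO asynchronous libraries. The value of 8.26 belongs to the library that carries epithelial transcripts. MXD4 was at 8.76, 8.7 and 8.5 in Nutlin asynchronous libraries, against 8.21, 7.88 and 8.94 in DMSO asynchronous libraries, with the highest value again in that library. In the 13-library fit, MXD1 lay 0.48 (adjusted p 0.026) and MXD4 0.61 (adjusted p 0.0171) higher under Nutlin in asynchronous cells. With all libraries the differences were 0.16 ± 0.21 and 0.31 ± 0.23 (adjusted p 0.892 and 0.684). Each gene passed in this 1 alternative run of 23, and 0 members passed without DMSO asynchronous replicate 3 alone. The part of the epithelial transcripts in these values was not tested.

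MNT, the most widely expressed MAX-binding repressor in other tissues, was at 6.41 and 6.97 in Nutlin S-phase libraries, against 7.15, 8.25 and 6.93 in DMSO S-phase libraries. The highest value is that of the shallow DMSO S-phase replicate 2. The difference was -0.75 ± 0.31 (adjusted p 0.302) with all libraries and -0.35 (adjusted p 0.346) with 13. MXD4 lay 0.18 ± 0.25 higher in DMSO non-released than in DMSO asynchronous cells (adjusted p 0.631). Over 13 libraries it lay 0.47 higher (adjusted p 0.0196), which was the 1 alternative run of 23 that called it.

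TFAP4 lay lower under Nutlin in every state, and was the only member with no overlap between the groups in any. MYCN, MXD3 and MNT also had lower means under Nutlin in every state, with overlap in asynchronous cells. The share of all genes without overlap was not computed. It was at 7.80 and 7.60 in Nutlin S-phase libraries, against 8.23, 8.55 and 8.37 in DMSO S-phase libraries, and at 7.75 and 7.85 in Nutlin non-released libraries, against 8.31 and 8.37 in DMSO non-released libraries. In asynchronous cells it was at 8.22, 8.54 and 8.51 under Nutlin, against 8.77, 9.02 and 8.90 in DMSO. The difference passed the test in S-phase cells, at -0.68 ± 0.13 (adjusted p 0.0123). Mean normalised reads there were 148.4 ± 19.6 under Nutlin and 268.8 ± 36.2 in DMSO (SD, n = 2 and 3), a ratio of 0.552. It missed the test in non-released cells, at -0.54 ± 0.14 (adjusted p 0.123), and in asynchronous cells, at -0.47 ± 0.12 (adjusted p 0.0512). In the 13-library fit it passed in all 3 (adjusted p 0.0155, 0.0315 and 0.0273 in S-phase, non-released and asynchronous cells). The asynchronous difference also passed without DMSO S-phase replicate 2 alone (adjusted p 0.026). The S-phase call was lost without Nutlin S-phase replicate 2 (adjusted p 0.147), in a fit of the compared groups alone (0.159) and under voom scaled by total reads (0.0548).

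TFAP4 also fell with the cell-cycle state. In DMSO the difference from asynchronous cells was -0.56 ± 0.13 in non-released (adjusted p 0.00531) and -0.51 ± 0.12 in S-phase cells (adjusted p 0.00643, and 0.0588 in a fit of the compared groups alone). Under Nutlin these were -0.63 ± 0.13 (adjusted p 0.00256) and -0.72 ± 0.13 (adjusted p 0.00176). Unlike MYC, TFAP4 showed little difference between S-phase and non-released cells, 0.05 ± 0.13 in DMSO and -0.10 ± 0.14 under Nutlin (adjusted p 0.883 and 0.818). A difference between MYC and TFAP4 in this comparison was not tested.

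**Figure D3:**
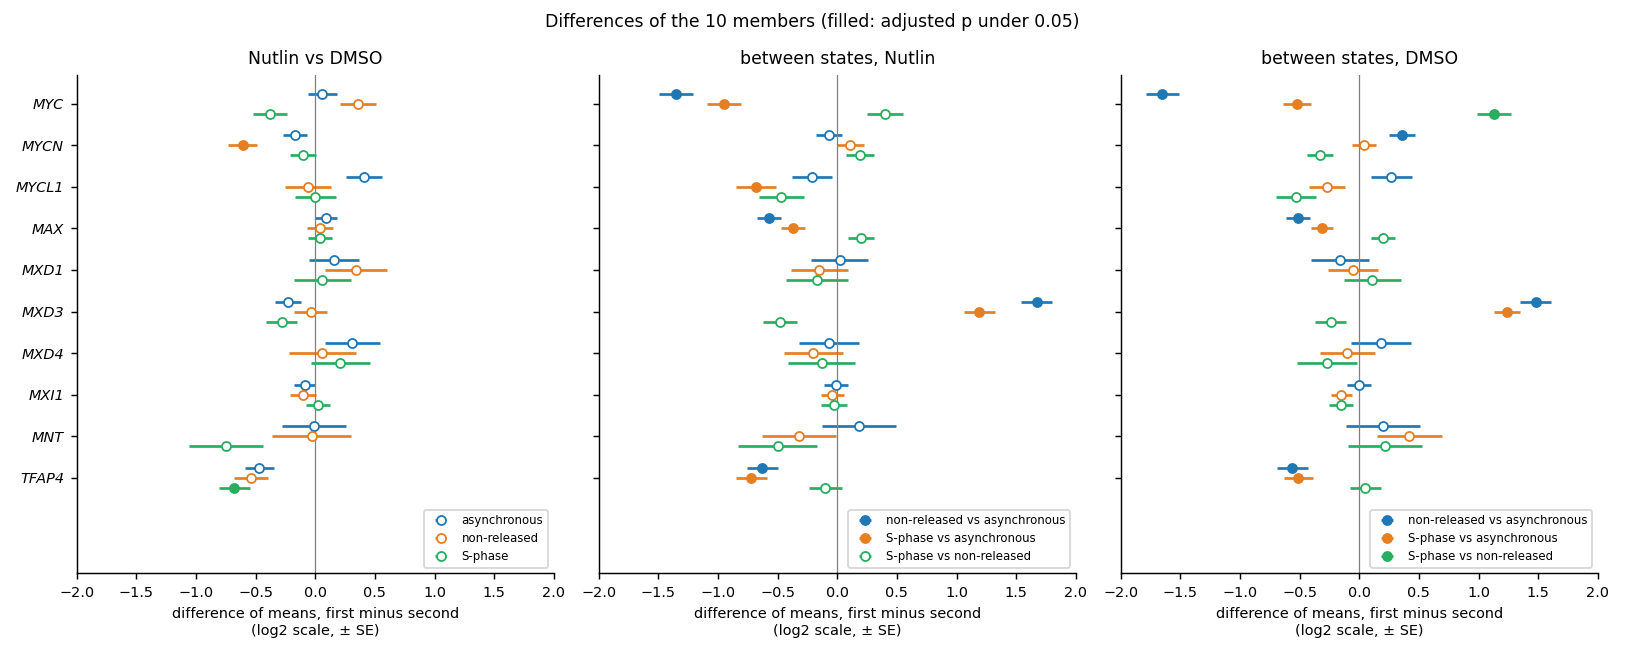
Difference of group means on the log2 scale with its SE (horizontal axis) for each member (rows), for Nutlin against DMSO and between states within each treatment, filled where the adjusted p is under 0.05. The differences of MYC (-1.65) and MXD3 (1.48) between non-released and asynchronous cells are the farthest from 0 in DMSO, and Nutlin against DMSO has 2 filled points, MYCN in non-released and TFAP4 in S-phase cells.

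Counted over the 10 members, 5 passed the test between non-released and asynchronous cells in DMSO (2 higher, 3 lower), against 33.9% of all 14298 genes tested. MYCN, which passed the filter on low values only through DMSO non-released libraries, is among the 2 higher, and without it 4 members passed. Between S-phase and asynchronous cells in DMSO 4 passed (1 higher, 3 lower), against 27.7%, and between S-phase and non-released cells 1 (MYC, higher), against 6.99%. Under Nutlin, 4 passed between non-released and asynchronous cells (1 higher, 3 lower), against 34.5%, and 5 between S-phase and asynchronous cells (1 higher, 4 lower), against 24%. Between S-phase and non-released cells under Nutlin 0 passed, against 2.43%, with 3 at an unadjusted p under 0.05. With 10 members, these counts are too near the background to single the network out.

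For Nutlin against DMSO, 1 member passed in S-phase cells (TFAP4), against 2% of all genes, and 1 in non-released cells (MYCN), against 0.916%. MYCN passed the filter on low values only through DMSO non-released libraries, so its call is given no weight. Without MYCN 0 members passed in non-released cells. In asynchronous cells limma called 0, against 2.45%, with 2 members at an unadjusted p under 0.05, and voom on the recovered reads called 1 (TFAP4, adjusted p 0.024). For the differences between Nutlin responses, 0 of 10 members and 0% of all genes passed in each of the 3 comparisons, with 1, 1 and 2 members at an unadjusted p under 0.05. Scaling by total reads put the median difference of all genes at 0.14 between non-released and asynchronous DMSO cells, against -0.01 in the deposited scaling, and made 72% of calls higher, against 49.9% in the deposited scaling. The same split was 69.1% against 50.9% for S-phase against asynchronous DMSO cells, 38.5% against 58.7% for S-phase against non-released DMSO cells, 69.3% against 50.1% for non-released against asynchronous Nutlin cells, and 39.1% against 65.8% for S-phase against non-released Nutlin cells. No called member changed direction in any alternative run, of which there were 23, or 20 for MYCN.

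The balance of MYC and MXD3 transcripts within each library separated the states. Per length, MYC exceeded MXD3 by 4.83 and 4.34 times in Nutlin S-phase and 4.01, 5.17 and 5.4 times in DMSO S-phase libraries. In non-released cells the ratio was 2.18 and 2.6 under Nutlin and 1.98 and 1.61 in DMSO. In asynchronous cells it was 27.7, 26.4 and 19.9 under Nutlin and 24, 16.7 and 17.4 in DMSO. The 3 states did not overlap in this ratio, and the choice of transcript length scales all libraries alike.

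The summed reads per kb of MXD1, MXD3, MXD4, MXI1 and MNT came to 0.945 and 0.815 of those of MYC in Nutlin non-released and 1.07 and 1.24 in DMSO non-released libraries. In asynchronous libraries they came to 0.199 to 0.237 under Nutlin and 0.187 to 0.301 in DMSO. With median transcript lengths the same shares were 1.08 and 1.26 in Nutlin non-released and 1.47 and 1.69 in DMSO non-released libraries. MXD3 made up 47.1% and 50% of the sum in DMSO non-released and 22.3%, 26.7% and 19.1% in DMSO asynchronous libraries. These are ratios of transcripts, and no protein was measured.

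**Figure D4:**
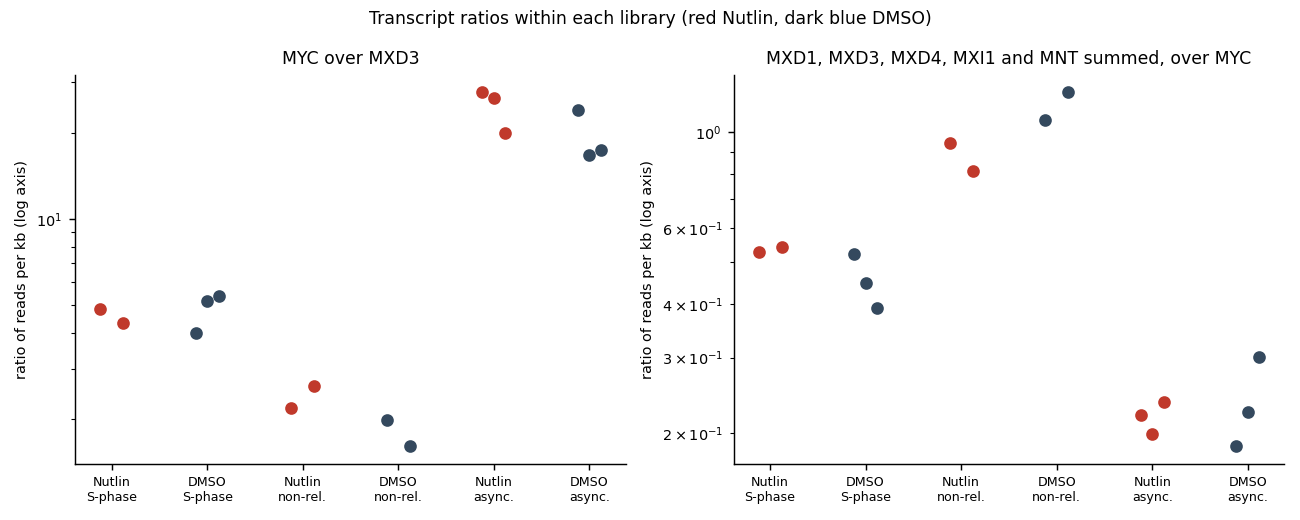
Ratio of reads per kb within each library (vertical axes, log scale) by group (horizontal axis), MYC over MXD3 on the left and the summed genes of MAX-binding repressors over MYC on the right. MYC over MXD3 lies between 1.61 and 2.6 in non-released, between 4.01 and 5.4 in S-phase and between 16.7 and 27.7 in asynchronous libraries.

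Of the genes known to be activated by MYC, most were lower in the block and after release than in asynchronous cells. Of 32 listed, 30 were tested, and EIF4A1 is listed at 0. Between non-released and asynchronous DMSO cells 21 fell and 1 rose, with a median difference of -0.66, against -0.01 over all genes. Of all 14298 genes 33.9% passed in this comparison, 2431 of them lower. RRS1, a ribosome assembly factor, differed by -1.69 ± 0.13 (adjusted p 5.01e-06), MYBBP1A, a nucleolar regulator of ribosomal RNA synthesis, by -1.19 ± 0.11 (1.28e-05), and ODC1, the first enzyme of polyamine synthesis, by -1.13 ± 0.15 (0.000115). RRS1 was at 9.18 and 8.89 in DMSO non-released, against 10.86, 10.70 and 10.63 in DMSO asynchronous libraries. NCL and NPM1, which encode the abundant nucleolar proteins nucleolin and nucleophosmin, differed by -0.85 and -0.73. The gene that rose was E2F2, a G1/S factor that is also an E2F target, at 1.14 ± 0.16 (adjusted p 0.000196). Other members passing the test downward included BOP1 (-1.01), GNL3 (-1.01), NOLC1 (-1.02), POLR1B (-0.94), PES1 (-0.92), NOP58 (-0.85), NOP56 (-0.77), SRM (-0.76) and EIF4E (-0.79).

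In DMSO S-phase against asynchronous cells 22 fell and 0 rose (median -0.51, against -0.01 over all genes, of which 27.7% passed). Against non-released DMSO cells, S-phase cells had 5 genes higher (GNL3, MYBBP1A, NOLC1, POLR1B and RRS1, by 0.41 to 0.74) and 2 lower (E2F2 and CCND2), against 6.99% of all genes called. That count was 13 higher and 2 lower over 13 libraries, against 14.3% of all genes. Under Nutlin 22 fell and 1 rose between non-released and asynchronous cells (median -0.69, against 0), 18 fell between S-phase and asynchronous cells (median -0.47, against 0), and 2 rose and 1 fell between S-phase and non-released cells (median 0.20, against 0.01). The shares of all genes called were 34.5%, 24% and 2.43%. Over 13 libraries 25 fell and 2 rose, 24 fell and 1 rose, and 10 rose and 2 fell in these comparisons, against 50.2%, 41.2% and 10.8% of all genes.

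Between Nutlin and DMSO in asynchronous cells 4 of the 30 passed, against 2.45% of all genes, of which 3 fell (differences of -1 for E2F2, -0.51 for CDC25A and -0.33 for NOLC1) and 1 rose (CCND2, by 0.35), with a median of -0.03, against -0.02 over all genes. CDC25A is the phosphatase that activates CDK2, and NOLC1 a nucleolar factor. In S-phase and in non-released cells 0 passed, against 2% and 0.916% of all genes, with medians of -0.05 and -0.09. In those states the farthest were E2F2 (-0.62 in S-phase, -0.54 in non-released cells) and NME1 (0.39 and 0.19).

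**Figure D5:**
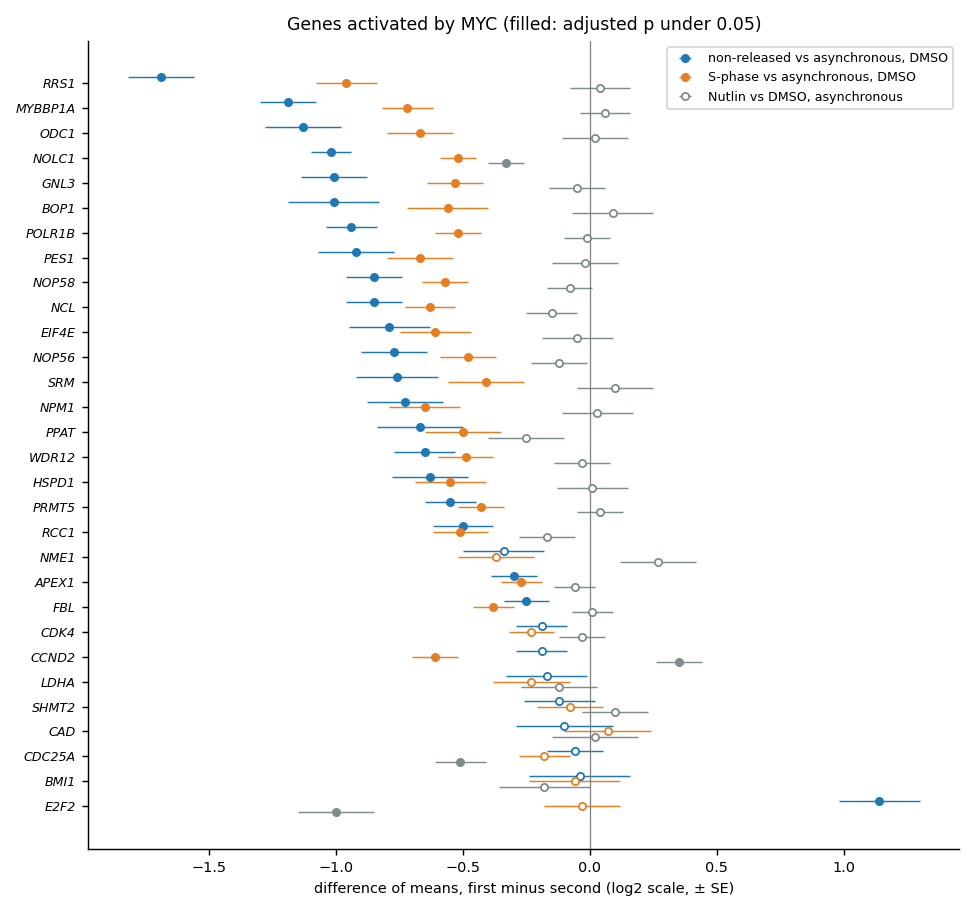
Difference on the log2 scale with its SE (horizontal axis) of the 30 tested genes activated by MYC (rows, ordered by the first comparison) for non-released and S-phase against asynchronous cells in DMSO and for Nutlin against DMSO in asynchronous cells, filled where the adjusted p is under 0.05. From RRS1 (-1.69) downwards 21 genes are filled on the left in non-released cells, and the Nutlin points lie around 0 apart from E2F2, CDC25A, NOLC1 and CCND2.

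Of 12 tested genes known to be repressed by MYC, 3 rose and 2 fell between non-released and asynchronous DMSO cells (median 0.17, against -0.01 over all genes, of which 33.9% passed). Over 13 libraries 5 rose and 2 fell (median 0.37), against 48% of all genes. NDRG2, a growth suppressor, rose by 1.19 ± 0.12 (adjusted p 2.32e-05), CDKN1C, a CDK inhibitor, by 0.72 and GAS1, a growth arrest gene, by 0.61. THBS1, an inhibitor of angiogenesis, differed by -1.15 ± 0.14 (adjusted p 7.45e-05) and GADD45A, a p53 target of the damage response, by -0.69. In DMSO S-phase against asynchronous cells 4 rose and 1 fell (median -0.02, against 27.7% of all genes called). Under Nutlin 5 rose and 0 fell between S-phase and asynchronous cells (median 0.41, against 24% of all genes called). Over 13 libraries 7 rose and 1 fell, against 41.2% of all genes. Between non-released and asynchronous Nutlin cells 2 rose and 2 fell (median 0.27, against 34.5% of all genes called). Over 13 libraries 5 rose and 2 fell there, against 50.2% of all genes. With all libraries GADD45A was the 1 gene of the list called under Nutlin, and over 13 libraries CDKN1A, also in it, was called higher in each state as well. The shares of all genes called were 2%, 0.916% and 2.45% in S-phase, non-released and asynchronous cells, and 3.97%, 3.23% and 6.26% over 13 libraries. CDKN1B, a CDK inhibitor, was then called lower in asynchronous cells, with a difference of -0.45 ± 0.11 and an adjusted p of 0.0512 with all libraries and 0.0273 over 13. GADD45A rose by 0.96 ± 0.14 in S-phase, 0.91 ± 0.15 in non-released and 0.77 ± 0.12 in asynchronous cells (adjusted p 0.00145, 0.00757 and 0.00236).

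Of 11 genes of MYC protein turnover, FBXW7, which encodes the subunit of a ubiquitin ligase that recognises phosphorylated MYC, rose under Nutlin in all 3 states. It was at 11.63 and 11.58 in Nutlin S-phase, against 10.55, 10.29 and 10.53 in DMSO S-phase libraries, and at 11.41 and 11.42 in Nutlin non-released, against 10.66 and 10.54 in DMSO non-released libraries. In asynchronous cells it was at 11.43, 11.37 and 11.37 under Nutlin, against 10.49, 10.45 and 10.57 in DMSO. The differences were 1.15 ± 0.09, 0.81 ± 0.10 and 0.89 ± 0.08 (adjusted p 1.27e-05, 0.00126 and 1.91e-05), and no group overlapped its control. TRIM32 also rose in asynchronous cells, by 0.38. Over 13 libraries 2 of the 11 rose and 2 fell in asynchronous cells, against 6.26% of all genes called. In S-phase cells 2 rose and 0 fell over 13 libraries, against 3.97%, and in non-released cells 1 rose and 0 fell, against 3.23%. With all libraries the shares of all genes called were 2%, 0.916% and 2.45% in S-phase, non-released and asynchronous cells. Between non-released and asynchronous DMSO cells 2 of the 11 rose (USP28 by 0.50 and SKP2 by 0.42) and 3 fell (differences of -0.88 for USP36, -0.79 for AURKA and -0.38 for GSK3B), with a median of -0.08, and these 5 of 11 are near the 33.9% of all genes called.

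Of the partners of the network, 0 of 3 tested MAX and MLX partners, 0 of 6 corepressors and 0 of 10 coactivators passed between Nutlin and DMSO in any state, which at 2%, 0.916% and 2.45% of all genes called in S-phase, non-released and asynchronous cells is no result about the partners. Between non-released and asynchronous DMSO cells, MGA and MLX fell (-0.35 and -0.52), as did the corepressor genes HDAC2 and NCOR1 (-0.39 and -0.45) and the coactivator genes RUVBL1, WDR5 and ACTL6A (-0.54, -0.33 and -0.30), against 33.9% of all genes called. Of the noncoding genes, PVT1, the neighbour of MYC, differed by -0.59 ± 0.12 (adjusted p 0.00196) and MIR17HG, the MYC-activated host of the miR-17 cluster, by -1.03 ± 0.14 (adjusted p 0.000142). Under Nutlin PVT1 was at 10.52, 10.48 and 10.37 in asynchronous libraries, against 10.03, 9.97 and 10.12 in DMSO asynchronous libraries, a difference of 0.41 ± 0.11 that missed the test with all libraries (adjusted p 0.0636) and passed it without the 2 that stand apart (0.00108).

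Over the 15 libraries, the genes whose values ran most like those of MYC were URB2 (r = 0.976), TAF4B (0.973), AFAP1 (0.972), TFB2M (0.968) and ANKLE2 (0.967). The least like were ZYG11B (-0.966), PPARGC1A (-0.955), NXPH2 (-0.954), DRD1 (-0.952) and SYTL4 (-0.95). The libraries fall into 3 states, and within a library all genes share its depth, so these values describe the order of the states and carry no test. Among members MYC ran most like MAX (r = 0.9) and least like MXD3 (-0.86), and MXD1 most like MXD4 (0.7), whose high values in DMSO asynchronous replicate 3 they share. TFAP4 ran most like MYC (0.6), MXD3 most like MYCN (0.34), MYCN and MXI1 most like each other (0.42), MYCL1 most like MXD4 (0.44) and MNT most like MXD4 (0.39).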

How the data were processed

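TruSeq RNA libraries of 15 U2OS samples were read from 1 end, per the labels' protocols. Per the submitters' processing notes the build was hg19, and DESeq2 1.10.1, HTSeq, TopHat 0.9 and CASAVA 1.8.2 are listed with no role. The authors deposited 1 table of variance-stabilised values, which are log2 at high expression and compressed at low reads. Reads were recovered by inverting the transformation (lowest value 4.859, the value at 0 reads). At least 99.04% of values per library came within 0.05 of a whole read. In DMSO S-phase replicate 3, 0.61% of counts were odd before its scale was halved. Zero reads allow up to 0.128 to 0.496 CPM by library, the limit being 3 reads, for counting error only.

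Differences were tested on the deposited values in R 4.3.3 by limma 3.58.1. The model had a mean for each of the 6 groups and a mean-variance trend. The tests are two-sided and adjusted by Benjamini and Hochberg over 14298 genes in each of 12 comparisons, with adjusted p under 0.05 as a call. The fit was tested on simulated data. Levels per length used GENCODE v29. Members and gene lists were chosen with earlier results of these data known, so their directions are no independent evidence. Every member is named. Of a list, not every called member is named, and where none was called the farthest 3 in each direction at most are named. The 5 genes most and least like MYC are named. Alternatives changed the filter, scaling, normalisation, model and libraries. The fit over 13 libraries was chosen after the data were seen.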

Additional observations from a re-analysis of the deposited data

How the results depend on the processing

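Counts of called members were recomputed under 23 alternatives per comparison, of which 20 could test MYCN. No called difference of a member changed sign. Calls over all genes changed as well. Without both libraries that stand apart, 6.26% of all genes passed for Nutlin against DMSO in asynchronous and 3.23% in non-released cells. The shares as reported were 2.45% and 0.916%. For S-phase against non-released cells the shares were 14.3% in DMSO and 10.8% under Nutlin, against 6.99% and 2.43% as reported. With the compared groups alone, 637 genes passed for Nutlin against DMSO in non-released cells, against 131. Nutlin against DMSO in asynchronous cells gave 1 called member (0 as reported) with the stricter filter, voom on recovered reads, voom scaled by total reads and the replicate block, 3 without both libraries that stand apart, and 0 to 1 without single replicates. In non-released cells it gave 0 (1 as reported) with the stricter filter, which leaves MYCN out, and with quantile normalisation, 3 with the compared groups alone, 2 without both libraries and 0 to 1 without single replicates. In S-phase cells it gave 0 (1 as reported) with the compared groups alone and voom scaled by total reads, and 0 to 1 without single replicates. S-phase against asynchronous DMSO cells gave 1 (4 as reported) with the compared groups alone. S-phase against non-released DMSO cells gave 2 with both voom fits and 3 without both libraries (1 as reported). S-phase against asynchronous Nutlin cells gave 3 to 5 without single replicates (5 as reported), and S-phase against non-released Nutlin cells 1 with voom scaled by total reads and 2 without both libraries (0 as reported). Where no construction is named, the cause was not tested. The labels do not say that a replicate number marks a shared culture, so the block is given here only. Same-numbered Nutlin and DMSO libraries deviated together by correlations of 0.31, 0.14 and 0.07 in asynchronous cells. The correlations were 0.32 and 0.32 in non-released and 0.34 and 0.35 in S-phase cells. Deviations from the mean of 2 libraries mirror each other, so the 2 non-released values are 1 number and not separate evidence. Differently numbered pairs were not computed. Same-numbered pairs across states reached from -0.28 to 0.48. The block added TFAP4 under Nutlin in asynchronous cells (adjusted p 0.0403). Per-length levels with the median transcript moved for 8 of 10 members and not for MXD1 and MXD4. At 2 to 26 reads, differences of MYCN are limited by depth.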

Other observations

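Of 10 genes known to act on MYC or MXD genes, 4 passed the test between non-released and asynchronous DMSO cells (1 higher, 3 lower) and 5 under Nutlin (3 higher, 2 lower), near the 33.9% and 34.5% of all genes called. Which genes were called lower in these 2 comparisons is not listed. E2F1, a G1/S factor, was higher in non-released than in asynchronous cells, by 0.95 ± 0.12 under Nutlin (adjusted p 7.66e-05) and 0.64 ± 0.12 in DMSO (adjusted p 0.00122). It was lower under Nutlin in asynchronous cells, with a difference of -0.50 ± 0.11 (adjusted p 0.0217). FOXO1, a factor of growth restraint that acts against MYC in other cells, lay above asynchronous cells in S-phase, by 1.22 ± 0.27 under Nutlin (adjusted p 0.00616) and 1.21 ± 0.24 in DMSO (adjusted p 0.00327). EGR1, an immediate early gene, lay 1.67 ± 0.43 higher in non-released than in asynchronous cells under Nutlin (adjusted p 0.00857), and 0.25 ± 0.43 higher in DMSO (adjusted p 0.684). STAT3 rose under Nutlin in non-released cells by 0.50 ± 0.10 (adjusted p 0.0227) and in asynchronous cells by 0.47 ± 0.08 (adjusted p 0.00417).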
